A study of Mus musculus with 12 samples.

Results

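Neurotrophic factors are secreted proteins that keep neurons and glia alive and shape their growth, and they act through receptors on the cell surface. The 9 genes described here, of 54532 genes in the count table, were taken by symbol: the ligands Bdnf, Ntf3, Gdnf, Cntf and Lif, and the receptors Ntrk2, Ntrk3, Gfra1 and Ret. Their RNA was measured by sequencing total RNA of whole mouse spinal cord. Mice were studied during experimental autoimmune encephalomyelitis (EAE), an immune attack on myelin used as a model of multiple sclerosis, and without disease (basal). The study asked, per its title, how the dopamine receptor DRD2 of astrocytes bears on inflammation of the central nervous system. There were 4 groups of 3 libraries, all from C57BL/6 mice aged 2 to 3 months. The cKO EAE group were Drd2mGFAP cKO mice (a conditional Drd2 deletion) sampled on day 17 of EAE, and the control EAE group were littermates labelled wt, sampled on the same day. The cKO basal and control basal groups were mice of those genotypes without EAE. The GFAP promoter in the name of the deletion is used by astrocytes, whereas the RNA came from all cells of the cord.

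The neurotrophins BDNF and NT-3 bind the receptor tyrosine kinases TrkB (Ntrk2) and TrkC (Ntrk3). GDNF binds the membrane-anchored co-receptor GFRA1, and the complex activates the kinase RET, a route known for the survival of motor neurons. CNTF and LIF are cytokines that act through the shared chain gp130 with the LIF receptor, and in the cord they are known as signals that glia make after injury.

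The libraries held 15128913 to 17592105 counts. RNA of Xist and Ddx3y showed female RNA in all basal and male RNA in all EAE libraries: Ddx3y ran from 69.7 to 74.5 CPM at EAE and was 0 at basal. EAE and sex therefore cannot be told apart in any contrast of EAE with basal, whereas cKO and control were compared within 1 sex. Drd2 itself was at 6.73 to 19.4 CPM in cKO EAE, 8.89 to 9.62 in control EAE, 17.6 to 34.7 in cKO basal and 19.4 to 26.5 in control basal, so the gene count did not separate the genotypes. All 13 neuronal and all 10 astrocyte markers were counted in every group, as the labelled tissue would hold. A pair of libraries stood apart. Library cKO basal 2 had counts for 17220 genes, where the other libraries had counts for 24303 to 26056, and its long genes were low. In cKO EAE 3, the antigen presentation gene Cd74 was at 6.56 CPM, against 340 to 2736 CPM in the other EAE libraries and 1.00 to 3.09 CPM at basal.

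Receptor RNA was far more abundant than ligand RNA. Levels between genes were compared as CPM per kilobase of the deposited gene length, where CPM is the count scaled to a common library size with TMM, a normalisation for library composition. In cKO EAE cords the order was Ntrk2 (24.1 ± 3.67), Ret (21.0 ± 4.65), Gfra1 (17.7 ± 1.14), Ntrk3 (5.03 ± 0.660), Bdnf (0.938 ± 0.459) and Lif (0.448 ± 0.299, SD, n = 3 each), with Cntf, Ntf3 and Gdnf below 0.2. In control EAE cords it was Ntrk2 (16.8 ± 1.35), Gfra1 (12.7 ± 1.77), Ret (10.5 ± 2.60), Ntrk3 (4.03 ± 0.513), Lif (1.44 ± 0.987) and Bdnf (0.667 ± 0.165). Ret thus ranked above Gfra1 in cKO EAE and below it in control EAE cords. In cKO basal cords Ntrk2 stood at 25.6 ± 3.61, Ret at 15.4 ± 6.70, Gfra1 at 10.3 ± 8.31, Ntrk3 at 3.95 ± 3.00 and Bdnf at 1.21 ± 0.218, with Lif at 0.0542 ± 0.0469. In control basal cords Ntrk2 stood at 23.5 ± 4.51, Ret at 19.3 ± 2.32, Gfra1 at 13.7 ± 1.496, Ntrk3 at 4.62 ± 1.31 and Bdnf at 1.22 ± 0.495, with Lif at 0.139 ± 0.0448. All of these are CPM per kilobase. Neighbours whose mean ± SD met were not separated: Ntrk2, Ret and Gfra1 in cKO EAE, Gfra1 and Ret in control EAE, Bdnf and Lif in both, and Ntrk2 and Ret in control basal cords. In cKO basal cords Ntrk2, Ret, Gfra1, Ntrk3 and Bdnf formed an unbroken chain of such neighbours. Below these, the unseparated neighbours were Lif, Cntf, Ntf3 and Gdnf in cKO EAE, Gdnf, Cntf and Ntf3 in control EAE, Ntf3, Cntf, Lif and Gdnf in cKO basal, and Ntf3, Lif, Cntf and Gdnf in control basal cords, each in falling order. Without cKO basal 2, the mean of the other cKO basal libraries was 15.1 for Gfra1 and 5.67 for Ntrk3.

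**Figure D1:**
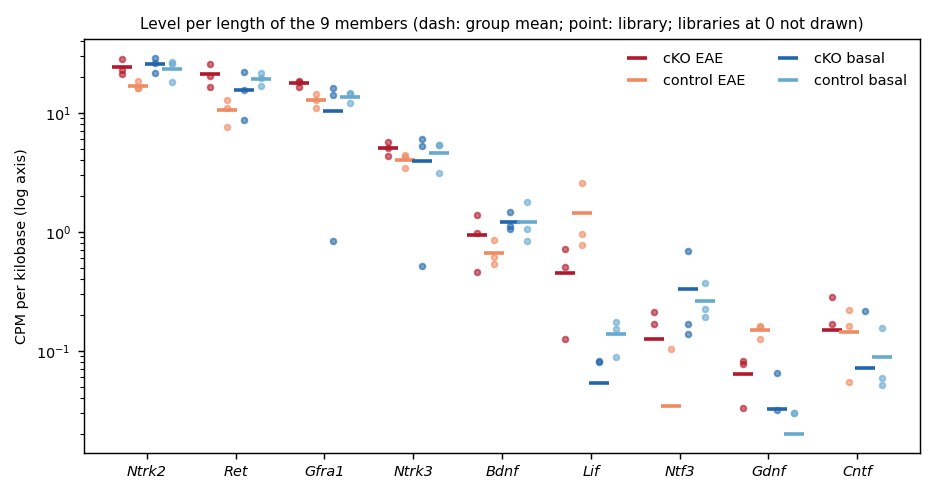
Level per length of the 9 genes in CPM per kilobase on a log axis, with a dash for the group mean and a point for each library, libraries at 0 left out. The 4 receptors lie above the 5 ligands in each group mean, and Lif stands at 1.44 in control EAE against 0.139 in control basal cords.

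Of the 9 genes, 6 passed the filter on low counts in the fit of all 12 libraries (Bdnf, Lif, Ntrk2, Ntrk3, Gfra1 and Ret), and Ntf3, Gdnf and Cntf did not. Calls rest on the quasi-likelihood test of edgeR, at a p below 0.05 after Benjamini-Hochberg adjustment over all genes tested. Across EAE and basal, 1 of the 6 genes was called in control mice, Lif, which rose, beside 12.1% of all genes called higher and 5.05% called lower. In cKO mice 0 of the 6 were called, beside 0.0376% of all genes, and 1 of the 6, Lif, had an unadjusted p under 0.05. The difference between both EAE responses called 0 of the 6 and 0% of all genes, with 1697 genes at an unadjusted p under 0.05, Ret among them. At EAE, cKO against control called 1 of the 6, Ret, which was higher, beside 6.13% of all genes called higher and 1.54% called lower. At basal, 5 of the 9 genes were tested and 0 were called, beside 0% of all genes. There 31 of 17133 genes, none of the 5 among them, had an unadjusted p under 0.05, and 388 of 17549 had without cKO basal 2. Such counts are below what a threshold of 0.05 gives without any change. The absence of calls at basal therefore does not show that the genotypes were alike. DESeq2's Wald test called 91 genes for the difference of responses and 1 gene for cKO against control at basal, none of them among the 9. The median log2 fold change over the tested genes of the group was 0.40 in cKO and -0.34 in control mice for EAE against basal, beside 0.08 and -0.01 over all genes. For cKO against control it was 0.52 at EAE and -0.23 at basal, beside 0.00 and -0.02 over all genes. Without cKO basal 2, the median for EAE against basal in cKO mice was 0.16, over 7 genes tested. For cKO against control at basal it then turned to 0.09, over 6 genes tested.

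**Figure D2:**
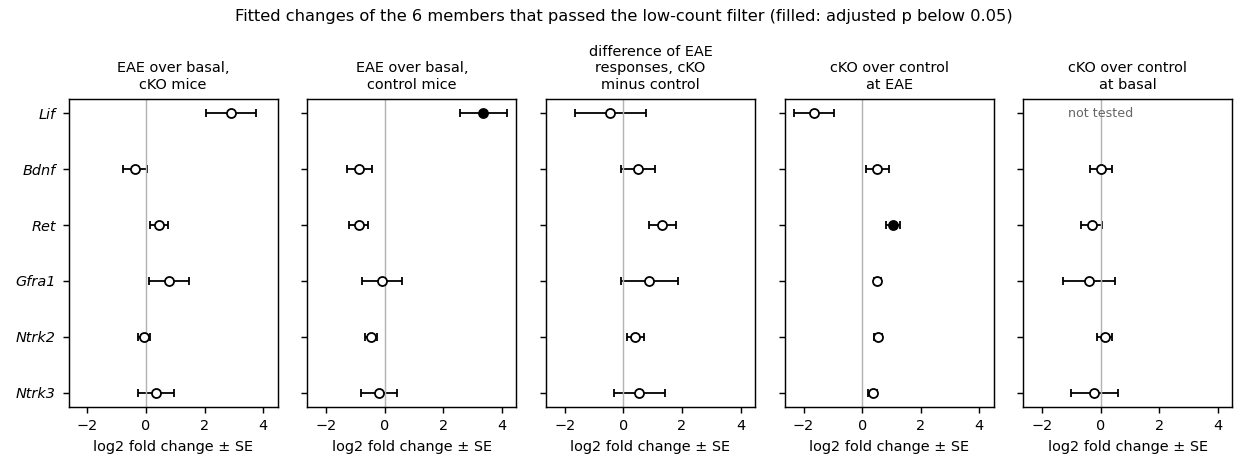
Log2 fold changes with their SE (edgeR quasi-likelihood fit) of the 6 genes that passed the low-count filter, in each of the 5 comparisons, with filled points at an adjusted p below 0.05. The filled points are Lif for EAE over basal in control mice (3.36) and Ret for cKO over control at EAE (1.05).

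Lif (ENSMUSG00000034394, chromosome 11, 4257557 to 4272514, plus strand, build mm10) encodes leukaemia inhibitory factor, a cytokine of the interleukin 6 family. Of the 6 tested genes it had the largest fitted change between EAE and basal in both genotypes. In EAE it was at 2.18, 3.12 and 0.547 CPM in cKO 1, 2 and 3, and at 4.21, 3.37 and 11.2 CPM in control 1, 2 and 3. At basal it was at 0.349, 0 and 0.358 CPM in the cKO libraries, and at 0.763, 0.387 and 0.663 CPM in the control libraries. Every EAE library was above every basal library of its genotype, and every cKO EAE library was below every control EAE library. Lif rose in control mice by 3.36 (log2 fold change, SE 0.81), or 10.3-fold, with adjusted p = 0.016 (quasi-likelihood test of edgeR, Benjamini-Hochberg). In cKO mice it stood at 2.91 (SE 0.86), for which edgeR gave adjusted p = 0.142. The difference of the responses was -0.45 (SE 1.22), for which edgeR gave adjusted p = 0.933. In bulk tissue, a change in the number of cells of a type and a change in RNA per cell cannot be told apart.

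The call in control mice held in 11 of 15 alternative fits, with adjusted p of 5.18e-05 to 0.0822. It was lost without control EAE 3, the library with 11.2 CPM (log2 fold change 2.56, edgeR adjusted p = 0.0822), and without control basal 1, 2 or 3 (edgeR adjusted p of 0.0544, 0.0782 and 0.0664). Without cKO basal 2 and cKO EAE 3, Lif was called in both genotypes, at 2.87 (SE 0.68) in cKO and 3.38 (SE 0.49) in control mice, with edgeR adjusted p of 0.0126 and 0.000124. In that fit 14.3% of all genes were called in cKO mice, and 24.9% were called higher and 20.8% lower in control mice. Over 12 alternatives the cKO value ran from 2.41 to 3.31. At EAE, cKO against control gave -1.64 (SE 0.68) for Lif with edgeR adjusted p = 0.136, and the 12 alternatives gave adjusted p of 0.0442 to 0.383.

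Lif levels were read beside markers of cells that enter the cord in EAE. The summed level of 9 monocyte and macrophage markers was 903, 1856 and 117 CPM in cKO EAE 1, 2 and 3, and 6203, 4067 and 3571 CPM in control EAE 1, 2 and 3. Within cKO EAE, Lif had the same order as that sum, whereas in control EAE the library with the most Lif had the least of it. All 9 of these markers and all 9 T cell markers were called higher in EAE in control mice. The summed level of the 9 T cell markers was 31.1, 52.7 and 5.65 CPM in cKO EAE 1, 2 and 3. In control EAE 1, 2 and 3 it was 112, 105 and 117 CPM. Within both EAE groups, Lif had the same order of libraries as the T cell sum. The part of these cells in the Lif result was not tested.

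The RefSeq promoter table (build GRCm38.p6) holds a promoter for 7 of the 9 genes. The 250 bases before the start of Lif, chr11:4257318-4257567 on the plus strand, are printed because Lif was called in EAE, with the match to the AP-1 motif in capitals. The RefSeq start lies a few bases inside the deposited span of the gene, so the end of the window overlaps that span, and distances are counted from the RefSeq start.
Lif: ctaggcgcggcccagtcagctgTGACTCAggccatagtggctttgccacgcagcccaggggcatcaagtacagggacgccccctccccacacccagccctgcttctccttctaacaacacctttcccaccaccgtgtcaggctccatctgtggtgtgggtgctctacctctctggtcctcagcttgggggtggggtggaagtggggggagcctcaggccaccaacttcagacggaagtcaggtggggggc
The motifs searched on both strands were STAT (TTCNNNGAA), AP-1 (TGANTCA), CRE (TGACGTCA), Ets (CCGGAA) and the TATA box (TATAAA). No searched motif overlapped the AP-1 match, which is TGACTCA and lies 228 to 222 bases before the start. A match to AP-1 was found in 6.75% of 32851 promoters of the same length, to STAT in 7.02%, to CRE in 1.55%, to Ets in 12.03% and to the TATA box in 12.4%. The match describes these letters and not binding.

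Other genes of the CNTF, LIF and interleukin 6 family were counted in the same way. Of 12 such genes, all tested, 5 were called higher and 0 lower in EAE against basal in control mice, beside 12.1% and 5.05% of all genes, with a median log2 fold change of 1.24 beside -0.01 over all genes. Among them were Osmr, the oncostatin M receptor (3.64, SE 0.45), Il6ra, the interleukin 6 receptor (2.98, SE 0.45), Il6st, the gene of gp130 (0.85, SE 0.24), and the ligand Osm. The Il6st call was lost without any 1 control library (edgeR adjusted p of 0.0705 to 0.122), and the other named calls held. Osm was at 4.27, 4.14 and 6.36 CPM in control EAE, against 0, 0.166 and 0 CPM in control basal cords. Osmr was at 41.0, 36.1 and 12.6 CPM in cKO EAE and 36.4, 49.9 and 83.0 CPM in control EAE, against 5.66 to 5.99 CPM in cKO basal and 3.87 to 5.08 CPM in control basal cords. In both genotypes its EAE libraries lay above the basal ones. In cKO mice 0 of the 12 were called, with a median of 0.69.

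Of the receptor chains that CNTF and LIF use, Lifr and Cntfr were higher in cKO than in control mice at EAE, and Il6st (gp130) was not called. Lifr, the LIF receptor chain, was at 139, 114 and 111 CPM in cKO EAE, against 77.3, 91.4 and 81.8 CPM in control EAE cords. Cntfr, the CNTF-binding chain, was at 103, 96.6 and 116 CPM in cKO EAE, against 80.5, 79.9 and 71.3 CPM in control EAE cords. For both genes every cKO EAE library was above every control EAE library. Lifr was higher in cKO by 0.58 (SE 0.12) and Cntfr by 0.48 (SE 0.10), with edgeR adjusted p of 0.0476 and 0.0474. They were the 2 of 12 family genes called in that comparison, beside 6.13% of all genes called higher and 1.54% lower. The median log2 fold change over the 12 was -0.38, beside -0.0002 over all genes, so both called genes differed in sign from the family median. Il6st was at 226, 225 and 150 CPM in cKO EAE, against 228, 235 and 250 CPM in control EAE cords, all cKO libraries below all control ones (-0.21, SE 0.17, edgeR adjusted p = 0.392). Without cKO EAE 1, or without any 1 control EAE library, 0 genes of the whole table were called at EAE by edgeR, Lifr and Cntfr included. In cKO basal 2, Cntfr was at 6.64 CPM and Lifr at 40.2 CPM, below all other libraries.

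**Figure D3:**
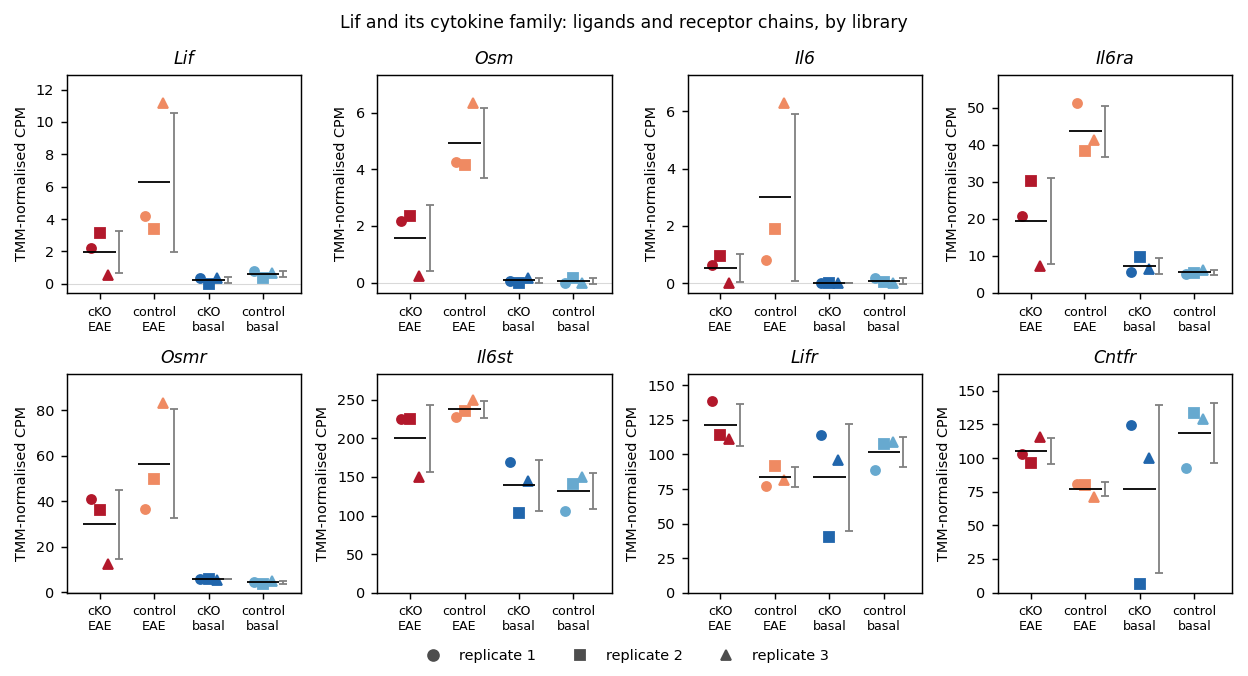
TMM-normalised CPM of Lif, the ligands Osm and Il6, and the receptor chains Il6ra, Osmr, Il6st, Lifr and Cntfr in the 12 libraries, with a bar for the group mean and a grey bar for the SD. Lif reached 11.2 CPM in control EAE 3, and Lifr and Cntfr lay higher in all cKO EAE than in all control EAE libraries.

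Bdnf (ENSMUSG00000048482, chromosome 2, 109674700 to 109727007, plus strand) encodes brain-derived neurotrophic factor, the main ligand of TrkB. It was at 2.87, 6.05 and 8.57 CPM in cKO EAE and at 3.35, 3.79 and 5.31 CPM in control EAE cords. At basal it was at 6.51, 7.004 and 9.06 CPM in cKO and at 11.1, 6.52 and 5.19 CPM in control cords. The groups overlapped in each of the 4 pairs compared, with control basal 3 below control EAE 3 and cKO EAE 3 above cKO basal 1 and 2. EAE against basal gave -0.37 (SE 0.42) in cKO and -0.87 (SE 0.42) in control mice, with edgeR adjusted p of 0.66 and 0.204. Limma voom with sample weights called Bdnf lower in cKO mice (-1.14, adjusted p = 0.0245), where the 13 alternatives ran from that value to an adjusted p of 0.955. In control mice 1 of 15 alternatives called it lower, edgeR on the 6 control libraries alone (-0.87, SE 0.31, adjusted p = 0.0439), and the highest adjusted p was 0.585. Of its exon bases, 14.4% lie opposite Gm45346, which had 12 counts against 1232 for Bdnf.

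Gdnf (ENSMUSG00000022144, chromosome 15, 7810846 to 7837575, plus strand) encodes glial cell line-derived neurotrophic factor, the ligand of GFRA1 and RET. It was near the limit of detection, with 5, 5 and 2 counts in cKO EAE and 8, 10 and 10 counts in control EAE libraries. At basal it had 2, 0 and 4 counts in cKO and 0, 2 and 2 counts in control libraries. In control mice every EAE library was above every basal one, and at EAE every cKO library was below every control library. The depth-scaled ratio of summed counts, EAE over basal, was 7.08 in control mice (95% exact interval 2.48 to 27.8) and 1.78 in cKO mice (0.618 to 5.78). These intervals cover counting error only.

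Ntf3 (ENSMUSG00000049107, chromosome 6, 126101412 to 126166910, minus strand), the gene of the TrkC ligand NT-3, was also near that limit. It had 5, 0 and 6 counts in cKO EAE and 0, 3 and 0 counts in control EAE libraries. At basal it had 5, 13 and 4 counts in cKO and 10, 7 and 6 counts in control libraries. In control mice every EAE library lay below every basal one, with a ratio of 0.132 (95% exact interval 0.0253 to 0.436), and in cKO mice the groups overlapped. Permuting EAE and basal within each genotype (exact, 400 arrangements, two-sided, smallest possible p 0.005) gave p = 0.01 for Gdnf, which was higher in EAE, and p = 0.025 for Ntf3, which was lower, each unadjusted and 1 of 3 genes so tested. The Ntf3 permutation included cKO basal 2, the library that stood apart, and was not repeated without it. That library had 1.18 CPM of Ntf3, against 0.291 and 0.239 CPM in cKO basal 1 and 3. Without the filter on low counts, edgeR gave adjusted p of 0.124 for Gdnf and 0.26 for Ntf3 in control mice. Without cKO basal 2 and cKO EAE 3, Gdnf passed the filter and was called higher in control mice (2.73, SE 0.67, edgeR adjusted p = 0.0054).

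Cntf (ENSMUSG00000079415, chromosome 19, 12763660 to 12765632, minus strand), the gene of ciliary neurotrophic factor, had 25 counts over all 12 libraries. It had 0, 3 and 5 counts in cKO EAE, 3, 4 and 1 in control EAE, 4, 0 and 0 in cKO basal and 1, 1 and 3 in control basal libraries. All groups overlapped, and the same exact permutation gave p = 0.26. Of the 1073 exon bases of Cntf, 847 (78.9%) are shared on the same strand with Zfp91, which had 37593 counts. How reads in shared exons were assigned is not given in the sources used here, so the level of Cntf is uncertain.

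**Figure D4:**
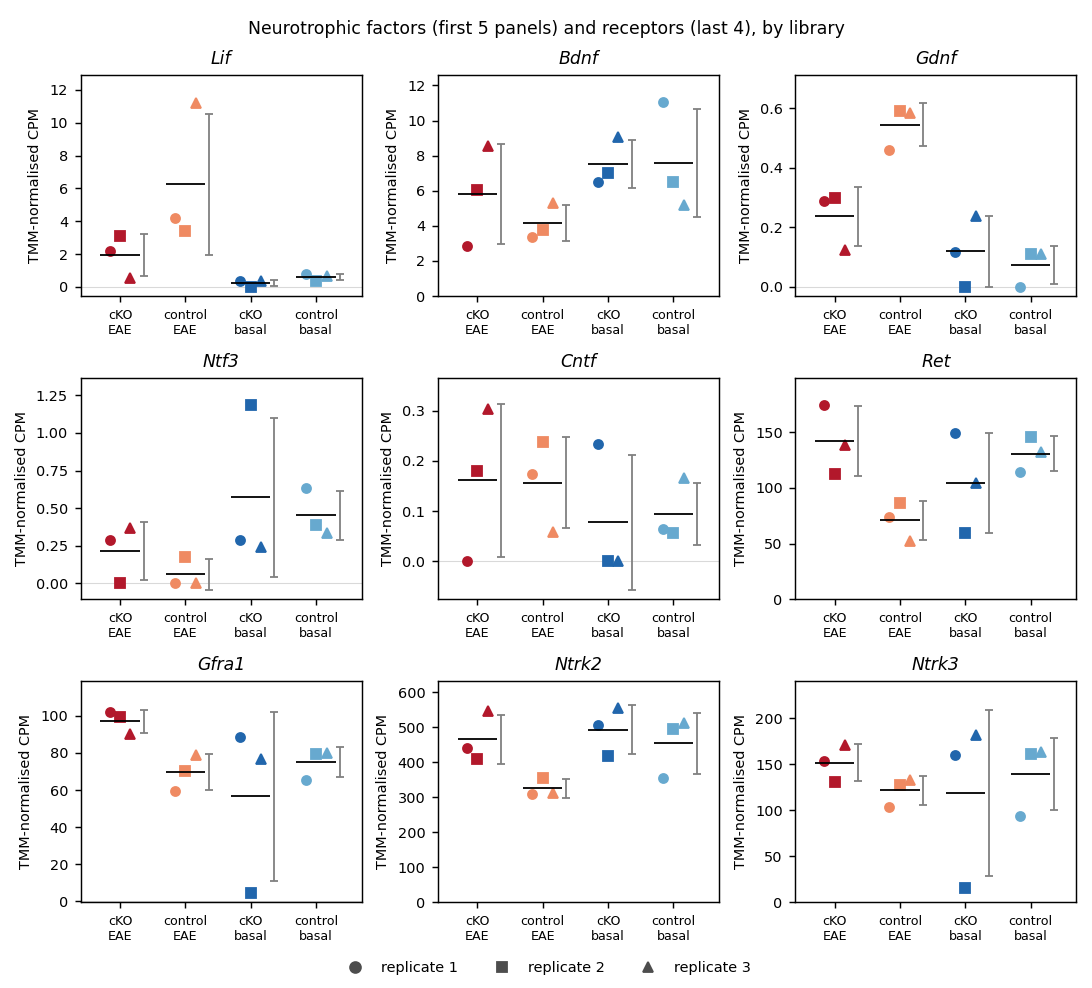
TMM-normalised CPM of the 9 genes in each library, with a black bar for the group mean and a grey bar for the SD (n = 3), drawn also where it passes below 0. Ret, Gfra1 and Ntrk2 are higher in every cKO EAE than in every control EAE library, and cKO basal 2 is low for Gfra1 (4.55 CPM) and Ntrk3 (15.6 CPM).

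At EAE, 3 of the 4 receptors (Ret, Gfra1 and Ntrk2) were higher in every cKO EAE library than in every control EAE library, beside 21.2% of all genes tested. The ligands Lif and Gdnf were lower in every cKO EAE library, beside 26.7% of all genes tested. For EAE against basal the groups did not overlap for Lif and Gfra1 in cKO mice, beside 15.6% of all genes tested, in either direction. In control mice they did not overlap for Lif, Gdnf, Ret and Ntf3, beside 56.8% of all genes tested. Gdnf and Ntf3 failed the low-count filter and were not among the genes behind these shares.

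Ret (ENSMUSG00000030110, chromosome 6, 118151745 to 118197718, minus strand) encodes the kinase that carries the GDNF signal into the cell. It was at 175, 113 and 138 CPM in cKO EAE and at 73.9, 86.5 and 51.8 CPM in control EAE cords. At basal it was at 150, 59.0 and 104 CPM in cKO and at 114, 146 and 132 CPM in control cords. Control EAE libraries were below all control basal and all cKO EAE libraries, whereas cKO EAE and cKO basal libraries overlapped. At EAE, Ret was higher in cKO than in control mice by 1.05 (SE 0.24), or 2.06-fold, with adjusted p = 0.0493 (quasi-likelihood test of edgeR, Benjamini-Hochberg).

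The Ret call at EAE lay close to the threshold. It held in 5 of 12 alternatives. Over all 12, the log2 fold change stayed between 0.85 and 1.22 and the adjusted p ran from 0.000651 to 0.23. It was lost, among other settings, without cKO EAE 1 (edgeR adjusted p = 0.138) and without control EAE 1, 2 or 3 (0.17, 0.115 and 0.154), with DESeq2 size factors (0.0514) and with all 12 libraries in the fit (0.23). Without cKO EAE 3, the library with little of the inflammatory response, Ret was at 1.07 (SE 0.24, edgeR adjusted p = 0.0239), Gfra1 and Ntrk2 were called too, and 9.11% of all genes were called higher. EAE against basal gave 0.44 (SE 0.32) for Ret in cKO and -0.88 (SE 0.32) in control mice, with edgeR adjusted p of 0.47 and 0.0914. The difference between the responses was 1.33 (SE 0.46), with an unadjusted p of 0.0143 and an edgeR adjusted p of 0.547. Without cKO basal 2 and cKO EAE 3, the control value of -0.88 was called (edgeR adjusted p = 0.00482) and the difference was 1.04 (SE 0.33, edgeR adjusted p = 0.144). In control mice 4 of 15 alternatives called Ret lower, limma voom and edgeR on the 6 control libraries alone among them. Over these 15 the adjusted p ran from 0.000366 to 0.231.

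Ret was read beside markers of motor neurons, cells that are known to express it. The sum of 8 motor neuron markers was 547, 297 and 383 CPM in cKO EAE, against 153, 165 and 92.5 CPM in control EAE cords. At basal it was 440, 194 and 140 CPM in cKO and 342, 400 and 300 CPM in control cords. Within each EAE group, Ret had the same order of libraries as that sum. At basal the orders differed: Ret was lowest in cKO basal 2 and control basal 1, and the sum in cKO basal 3 and control basal 3. Of the 8 markers, 6 were called higher in cKO than in control mice at EAE, with a median log2 fold change of 1.91, among them Chat, the enzyme of acetylcholine synthesis (1.92, SE 0.42), and Slc5a7, the choline transporter (2.39, SE 0.37). Of 13 general neuronal markers, 7 were called higher, with a median of 0.88 and sums of 7735 to 10240 CPM in cKO EAE against 3936 to 5306 CPM in control EAE cords. The sum of 9 Schwann cell markers was 603 to 993 CPM in cKO EAE and 440 to 539 CPM in control EAE cords, 0 of the 6 tested were called, and Pmp2 had 0 counts in both control groups. Of 7 sensory neuron markers, Mrgprd had 0 counts in every group and Scn10a had 0 in both control groups, with sums of 4.43 to 14.9 CPM in cKO EAE and 7.40 to 9.12 CPM in control EAE cords. The part of these cells in the Ret result was not tested.

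**Figure D5:**
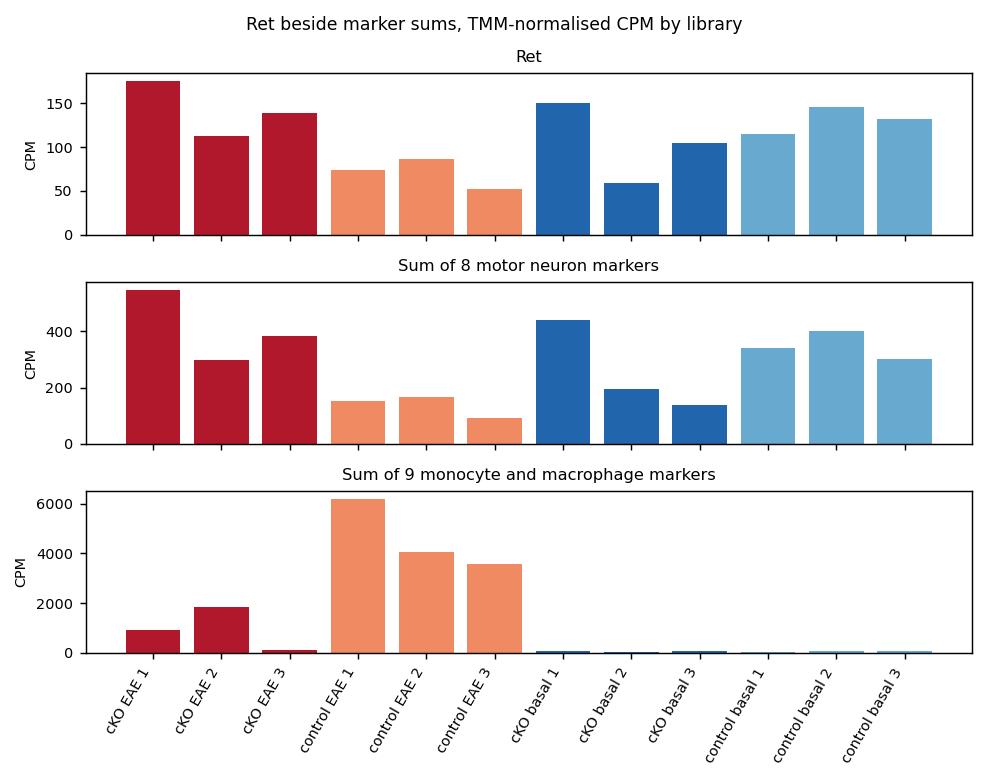
Ret, the sum of 8 motor neuron markers and the sum of 9 monocyte and macrophage markers in TMM-normalised CPM, with a bar for each of the 12 libraries. In control EAE, Ret (51.8 to 86.5 CPM) and the motor neuron sum (92.5 to 165 CPM) are below those of cKO EAE (113 to 175 and 297 to 547 CPM), and the monocyte sum is higher.

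Gfra1 (ENSMUSG00000025089, chromosome 19, 58235604 to 58455909, minus strand) encodes the GDNF-binding co-receptor of RET. It was at 102, 99.1 and 90.0 CPM in cKO EAE and at 59.7, 70.1 and 79.1 CPM in control EAE cords. Basal levels were 88.7, 4.55 and 76.7 CPM in cKO and 65.6, 79.5 and 80.1 CPM in control cords. The cKO EAE libraries lay above those of the other 3 groups, and cKO basal 2 stood far below all others. At EAE, cKO against control gave 0.52 (SE 0.12) with edgeR adjusted p = 0.0523, which missed the threshold. Without cKO EAE 3 it was 0.57 (SE 0.13) with edgeR adjusted p = 0.0231, and over 12 alternatives the adjusted p ran from 0.00687 to 0.888. EAE against basal gave 0.77 (SE 0.69) in cKO mice, a value of 0.27 (SE 0.16) without cKO basal 2 and cKO EAE 3, and -0.11 (SE 0.68) in control mice, with edgeR adjusted p of 0.567 and 0.949 with all libraries.

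Ntrk2 (ENSMUSG00000055254, chromosome 13, 58806569 to 59133970, plus strand) encodes TrkB, the receptor of BDNF. Gene counts do not separate the full-length kinase, known in neurons, from the truncated form, known in astrocytes. It was at 440, 410 and 545 CPM in cKO EAE and at 309, 355 and 310 CPM in control EAE cords. Basal levels were 507, 418 and 555 CPM in cKO and 353, 495 and 511 CPM in control cords. All cKO EAE libraries were above all control EAE libraries, while control basal 1 lay within the range of control EAE. At EAE, cKO against control gave 0.56 (SE 0.14) with edgeR adjusted p = 0.0548, and 5 of 12 alternatives called it, with log2 fold changes of 0.43 to 0.64 and adjusted p of 0.00444 to 0.29. EAE against basal gave -0.08 (SE 0.20) in cKO and -0.48 (SE 0.21) in control mice, with edgeR adjusted p of 0.845 and 0.147. Without cKO basal 2 and cKO EAE 3, the control value of -0.47 was called lower (edgeR adjusted p = 0.019). In control mice 4 of 15 alternatives called Ntrk2 lower, limma voom and edgeR on the 6 control libraries alone among them. Over these 15 the adjusted p ran from 3.98e-05 to 0.37. The sum of 10 astrocyte markers was 6619 to 10817 CPM in cKO EAE and 9502 to 11136 CPM in control EAE cords, which overlapped. Of the 10 markers, 2 were called higher in cKO than in control mice at EAE, the connexin gene Gjb6 (0.87, SE 0.13) and the glutamate transporter gene Slc1a2 (0.62, SE 0.14), and 0 lower, with a median of -0.18. The water channel gene Aqp4 stood at -0.63 (SE 0.30) and the glutamate transporter gene Slc1a3 at -0.45 (SE 0.10). The sum of 13 general neuronal markers was 7735 to 10240 CPM in cKO EAE and 3936 to 5306 CPM in control EAE cords, without overlap. Of these, 7 were called higher in cKO and 0 lower. The part of neurons or astrocytes in the Ntrk2 value was not tested.

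Upstream sequence is printed for Ntrk2, the most abundant of the 9 genes per length. The 250 bases before its start are chr13:58806319-58806568 on the plus strand (RefSeq, build GRCm38.p6).
Ntrk2: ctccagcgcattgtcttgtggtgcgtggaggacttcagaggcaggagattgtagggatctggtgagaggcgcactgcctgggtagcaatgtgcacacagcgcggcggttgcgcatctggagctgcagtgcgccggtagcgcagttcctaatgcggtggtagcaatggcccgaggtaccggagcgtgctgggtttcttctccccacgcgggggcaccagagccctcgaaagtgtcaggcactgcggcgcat
None of the 5 motifs searched for Lif matched in this window, which says only that those letters are not in it.

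Ntrk3 (ENSMUSG00000059146, chromosome 7, 78175959 to 78738012, minus strand) encodes TrkC, the receptor of NT-3. It was at 154, 131 and 171 CPM in cKO EAE and at 104, 128 and 133 CPM in control EAE cords. Basal levels were 160, 15.6 and 182 CPM in cKO and 93.7, 161 and 163 CPM in control cords. The cKO EAE and control EAE libraries overlapped, with cKO EAE 2 just below control EAE 3. At EAE, cKO against control gave 0.36 (SE 0.14) with edgeR adjusted p = 0.127. EAE against basal gave 0.35 (SE 0.62) in cKO and -0.20 (SE 0.62) in control mice, with edgeR adjusted p of 0.786 and 0.89. The cKO value turned to -0.18 without cKO basal 2. In control mice limma voom with sample weights called Ntrk3 lower (-0.39, SE 0.12, adjusted p = 0.0157), the lowest of 15 alternatives, and the highest adjusted p was 0.963.

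Library cKO basal 2 was below cKO basal 1 and 3 for all 4 receptors, though its 418 CPM of Ntrk2 stood above control basal 1 (353 CPM). Against the mean of cKO basal 1 and 3, that library had a log2 difference of -4.04 for Gfra1, -3.41 for Ntrk3, -1.07 for Ret and -0.34 for Ntrk2, and -0.13 for Bdnf. For the ligands with few counts it was 1.14 for Ntf3, -0.77 for Lif, -0.43 for Gdnf and -0.28 for Cntf. Over all genes tested, split into 4 classes of length, the median difference was -0.76 in the class of longest genes and 0.39 in that of the shortest. Gfra1, of 5476 bases, falls in the class of 3981 to 6310 bases, where the median was -0.35. Ntrk2, of 19292 bases, falls in the longest class and differed less than the median of that class.

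Without disease, none of the 5 tested genes was called between the genotypes. At basal, cKO against control gave 0.13 (SE 0.27) for Ntrk2, -0.23 (SE 0.81) for Ntrk3, -0.32 (SE 0.36) for Ret, -0.41 (SE 0.90) for Gfra1 and -0.00 (SE 0.37) for Bdnf, and the lowest edgeR adjusted p was 0.997. Without cKO basal 2, Ntrk3 was at 0.30 and Gfra1 at 0.14. Lif failed the low-count filter there, and its cKO basal libraries (0 to 0.358 CPM) lay below its control basal libraries (0.387 to 0.763 CPM). The gap was of few counts: 6 in cKO basal 1 and in cKO basal 3, 0 in cKO basal 2, and 7 in control basal 2. How many of all genes were so separated at basal was not counted.

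Other genes of these pathways were described from 6 lists. Their counts stand beside 12.1% of all genes called higher and 5.05% called lower for EAE against basal in control mice, and 6.13% and 1.54% for cKO against control at EAE, with medians of -0.01 and 0.00 over all genes. In the list of 8 further neurotrophin and Trk or p75 receptor genes, 7 were tested and 0 were called in control mice in EAE against basal (median log2 fold change -0.46). In the further GDNF family, 0 of 7 were called higher and 1 lower, Gfra4, the persephin co-receptor (-1.07, SE 0.32). Of 17 adapters and kinases below the receptors, 4 were called higher and 1 lower (median -0.02). Stat3, the transcription factor below gp130, rose by 1.65 (SE 0.26), its kinase Jak2 by 1.22 (SE 0.26) and the adapter Shc1 by 1.62 (SE 0.42), and Frs3, an adapter of Trk receptors, changed by -0.79 (SE 0.17). The calls of Gfra4 and Shc1 were lost without any 1 control library, with edgeR adjusted p of 0.0663 to 0.145 for Gfra4 and 0.0517 to 0.0955 for Shc1. For cKO against control at EAE, 0 of 6 tested neurotrophin list genes, 0 of 7 GDNF family genes and 0 of 17 adapters and kinases were called.

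Of 18 transcripts known to be induced by Trk, Ret or gp130 signalling, 6 were called higher and 1 lower in control mice (median 0.60). Socs3, the feedback inhibitor of gp130, was at 37.6, 52.5 and 2.80 CPM in cKO EAE and 82.3, 83.9 and 140 CPM in control EAE, against 0.637 to 1.86 CPM in cKO basal and 0.828 to 1.71 CPM in control basal cords. It was higher in every EAE library than in every basal one, least so in cKO EAE 3. Socs3 rose by 6.44 (SE 0.95) in control mice, Bcl3 by 5.53 (SE 0.90), Egr2 by 6.12 (SE 0.72) and Junb by 2.98 (SE 0.49). The neuropeptide precursor Vgf, which BDNF is known to induce, was at 162, 195 and 204 CPM in cKO EAE and 123, 123 and 136 CPM in control EAE cords. It fell in control mice by 0.80 (SE 0.15), and it was the 1 of 18 called higher in cKO than in control mice at EAE (0.59, SE 0.11, edgeR adjusted p = 0.044). The median over the 18 in that comparison was -0.36.

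Of 17 tested other growth factors for neurons and glia, 4 were called higher and 1 lower in control mice in EAE against basal (median 0.12). Tgfb1 (3.48, SE 0.53), Inhba (1.77, SE 0.29) and Fgf2 (2.57, SE 0.51) rose and Fgf9 (-1.31, SE 0.27) fell. Between cKO and control at EAE, 3 of 17 were called higher and 2 lower (median -0.03). Nrg1, a neuregulin that axons present to glia, was at 71.0, 45.3 and 64.7 CPM in cKO EAE, against 26.0, 30.3 and 23.8 CPM in control EAE cords, without overlap (1.22, SE 0.20). Fgf9 was higher in cKO as well (1.17, SE 0.19), and Inhba (-1.27, SE 0.24) and Mdk, the gene of midkine (-1.05, SE 0.15), were lower. Their edgeR adjusted p was 0.044, and like that of Vgf these calls were lost without cKO EAE 1 or any 1 control EAE library. In cKO mice for EAE against basal, in the difference of responses and at basal, 0 genes of the 6 lists were called.

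The genes nearest to each member in pattern were taken by the root mean square difference of standardised log2 CPM profiles over 14757 protein-coding genes, as a description over the libraries. For Ret, the nearest over 12 libraries were Eya2 (0.230), Htr2a (0.247) and Susd2 (0.249), and over the 11 without cKO basal 2 they were Eya2 (0.137), Slc5a7 (0.184) and Nefm (0.191), against a median of 1.46 over all genes compared. Slc5a7 and Nefm are on the marker lists of motor neurons and neurons. For Lif, Nrm was nearest over both sets (0.101 and 0.107), followed over 12 libraries by Hpgd (0.177) and Bhlhe40 (0.181). For Ntrk2 the nearest was Ppp1r9a (0.116) over 12 and Prepl (0.0933) over 11 libraries, for Ntrk3 Pde4d (0.0726) and Dopey1 (0.191), for Gfra1 Armh3 (0.115) and Frs2 (0.341), and for Bdnf Zfr (0.337) and Hs3st2 (0.279). The first gene of these 4 was thus different once cKO basal 2 was left out.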

How the data were processed

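The authors deposited raw read counts per gene for 12 libraries, with gene length (another value of the deposited table, in bases), and all count columns matched a sample label. The submitters' processing notes name HISAT2 2.0.5, featureCounts 1.5.0-p3 and the build mm10. Whether strand was used, the handling of reads in shared exons or several places, and the library kit are not given in the sources used here. Spans of all 9 genes equal those of GENCODE M21.

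The counts were tested with the quasi-likelihood F test of edgeR 4.0.16 under R 4.3.3 (limma 3.58.1), with TMM factors, edgeR's low-count filter, the group as only term and no robust option, after checks on simulated counts. Adjusted p-values are Benjamini-Hochberg over all genes tested, called below 0.05, and the SE is the log2 fold change divided by the square root of F. Both EAE responses and their difference came from 1 fit of 12 libraries, and cKO against control from the 6 EAE or the 6 basal libraries. Alternatives were DESeq2's size factors, no low-count filter, DESeq2's Wald test (1.42.0), limma voom with sample weights, a replicate block, other sets of libraries, and each library left out. Leaving out cKO basal 2 and cKO EAE 3 and the exact permutation of low genes were added after the data were seen. The likeness measure used log2(CPM + 0.5).

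Named were all 9 members, up to 4 called genes of each pathway list by smallest p, and 3 nearest genes per member. The members and lists were chosen with earlier results of these data known. Each library is labelled as a separate biological replicate; whether mice shared litters or cages is not given. 1 count was worth 0.0552 to 0.0910 CPM, which limits Gdnf, Ntf3 and Cntf.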

Additional observations from a re-analysis of the deposited data

How the results depend on the processing

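With an alternative fit in place of the one reported, counts of genes called moved as follows. For EAE against basal in cKO mice, 7 genes became 493 with no filter on low counts, 1239 by DESeq2's Wald test, 3648 by limma voom, 0 from the 6 cKO libraries and 2715 without cKO basal 2 and cKO EAE 3. Members called there were 1 by DESeq2's Wald test (Lif), 1 by voom (Bdnf) and 1 leaving out both libraries (Lif). In control mice, 3183 genes became 11120 by voom, 8149 from the 6 control libraries, 8166 leaving out cKO basal 2 and 8673 leaving out both, with 4 members called in each. The difference of responses had 91 genes by DESeq2's Wald test and 2999 by voom, with 1 member by voom (Ret). For cKO against control at EAE, 1374 genes became 4131 by DESeq2's Wald test, 5790 by voom, 0 with the replicate block and 0 with all 12 libraries, and members called were 0 with DESeq2 size factors, 2 with no filter, 4 by DESeq2's Wald test, 3 by voom, 0 with the replicate block and 0 with all 12 libraries. At basal, DESeq2's Wald test called 1 gene.

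Leaving out 1 library of the compared groups at a time (the 6 of the genotype, or the 6 at EAE) gave 5 to 1075 genes and 0 to 1 members in cKO mice, 1724 to 2073 genes and 0 to 1 members in control mice, and 0 to 3418 genes and 0 to 3 members for cKO against control at EAE. The 1075 genes came without cKO EAE 3. With all libraries but cKO EAE 1, or but any control EAE library, 0 genes were called at EAE.

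Signs turned only for uncalled members. For EAE against basal in cKO mice, Ntrk2 ran from -0.25 to 0.0037 and Ntrk3 from -0.18 (without cKO basal 2) to 0.76 over single libraries left out, and Ntrk3 was at -0.15 by voom and -0.28 without both libraries. In the difference of responses, Lif ran from -0.95 to 0.32 (without control EAE 3) over single libraries left out, Bdnf was at -0.55 by voom and Ntrk3 at -0.090 without both. At EAE Bdnf was at -0.062 by voom. At basal Bdnf was at 0.028 with DESeq2 size factors, 0.029 by DESeq2's Wald test, 0.34 by voom and 0.057 with the replicate block, Ntrk3 at 0.061 and Gfra1 at 0.027 by voom. Over single libraries left out at basal, Bdnf ran from -0.22 to 0.37, Ntrk2 from -0.021 to 0.23, Ntrk3 from -0.67 to 0.30 and Gfra1 from -0.88 to 0.14. The cause was not tested.

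The replicate numbers did not pair the libraries: 4 of 18 same-numbered pairs correlated above 0.1, and 4 of 12 libraries correlated best with their own number. With the replicate block, Ret at EAE had an edgeR adjusted p of 0.132. At 3 libraries a group, values near the threshold such as Ret, Gfra1 and Ntrk2 at EAE depend on single libraries, and ligands with few counts are limited by depth.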
